A study of Macaca mulatta with 11 samples.

Results

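Pairs of measured cytosines lying 1 bp apart, the spacing of the 2 strands of a single CpG, were examined in macaque brain. They were taken as any 2 listed positions on the same chromosome whose start coordinates differ by exactly 1. The tables list 3115109 positions, and 63630 such pairs were found, made of 119532 positions, or 3.84% of those listed. The levels played no part in the choice.

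A CpG reads the same on both strands, so each CpG offers a cytosine on either strand, and the cytosine of the second strand lies 1 bp further on. In mammalian cells DNMT1 copies the methyl mark onto the new strand after replication, so both strands of a CpG are usually in the same state, and a CpG marked on a single strand is called hemimethylated. Bisulfite converts unmethylated cytosines, after which the strands are no longer complementary and are read from separate molecules. The 2 members of a pair are therefore read from different converted strands, and agreement between them is a check on both the methylation and its measurement.

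DNA came from prefrontal cortex area 46 of 11 rhesus macaques, sampled before the animals had any ethanol. The animals form 2 cohorts: 2 animals of cohort 10, aged 5.02 and 5.08, and 9 of cohort 14, aged 5.18 to 5.44. Every animal carries an ethanol value for a later period of 6 months, from 1.69 to 4.31, called intake here. The labels give no unit for age or intake. The capture kit was SureSelect XT Human Methyl-Seq, whose probes were designed on human DNA, so the listed positions are those where macaque DNA was caught by them. The tissue holds neurons and glia together, and a level is a mean over all of them. Totals ran from 479979855 to 934657900 counts per library. Positions are given as the start listed by the authors, on a genome build not given in the sources used here, and neither genes nor sequence could be placed on them. The libraries of animals 3, 6, 7 and 8 of cohort 14 stood apart by their share of positions at the lowest unmethylated count of 1, which was 6.32% to 7.19% over all positions against 3.38% to 4.70% in the other 7, and 11.4% to 12.5% against 6.85% to 9.12% over pair members. Several results are given with and without them, and the others rest on all 11 libraries unless stated.

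The arrangement of the pairs fits 2 strands of a CpG, with some exceptions. Of the pairs, 52184 (82.0%) stood alone as 2 consecutive positions. The rest lay in longer runs of consecutive positions, as stretches of alternating C and G would give. Of 3718 runs of 3 or more positions, 3306 (88.9%) had an even length, as runs made of whole CpGs must. There were 3028 runs of 4 and only 385 of 3, and the longest run held 14 positions. In an even run, odd steps join the strands of a single CpG and even steps join the second strand of a CpG to the first strand of the next. By this count 59115 pairs were of the same CpG, 3625 joined neighbouring CpGs and 890 sat in runs of odd length, where these kinds cannot be told apart. The assignment in even runs, pairs standing alone included, rests on neither outer strand having been dropped from the list. This could not be checked without sequence.

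Depth alternated along the longest runs, as alternating strands would give. No strand is listed, so strands here are inferred from the order in the run. In the run of 14 on chromosome 20, starting at 29821182, the median depths of the first 6 positions were 158, 5636, 153, 5700, 157 and 5539 reads. The 7 positions of one strand were read at medians of 125 to 158 and the 7 of the other at 5034 to 5700. The next longest run, 12 positions on chromosome 5 from 24453791, alternated in the same way. Its first 4 positions had median depths of 45, 297, 48 and 306. Pooled levels in the first run also alternated by strand, from 41.1% to 47.3% on the 7 shallow positions and from 34.8% to 43.2% on the 7 deep ones, and at each of the 7 CpGs the shallow position was higher. Within animals this was not steady: the shallow positions were higher by 1.13 ± 5.51 points on average (SD, n = 11), from -11.1 to 6.22, and above the deep ones in 7 of 11 animals.

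Over all pairs, the deeper member had a median of 180 reads and the shallower 64. The depths differed by more than 2-fold in 53.9% of pairs and by more than 4-fold in 25.7%. Positions 2 bp apart had nearly equal depths, with a median absolute log2 ratio of 0.03 against 1.2 at 1 bp. Which member was deeper was a stable property of the place. It was the same member in all 11 animals at 38110 pairs (59.9%), the log2 ratios of any 2 animals correlated across pairs with r from 0.877 to 0.922 (55 animal pairs, all sharing the capture design), and the next pair within 100 bp was deeper on the same side in 94.4% of 46058 cases. The higher-coordinate member was slightly deeper on balance. The median log2 ratio of lower over higher coordinate was -0.09 ± 0.02 (SD, n = 11), below 0 in 11 of 11 animals (exact sign-flip test over animals, two-sided, p = 0.000977, the smallest p that 2048 sign patterns allow).

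**Figure D1:**
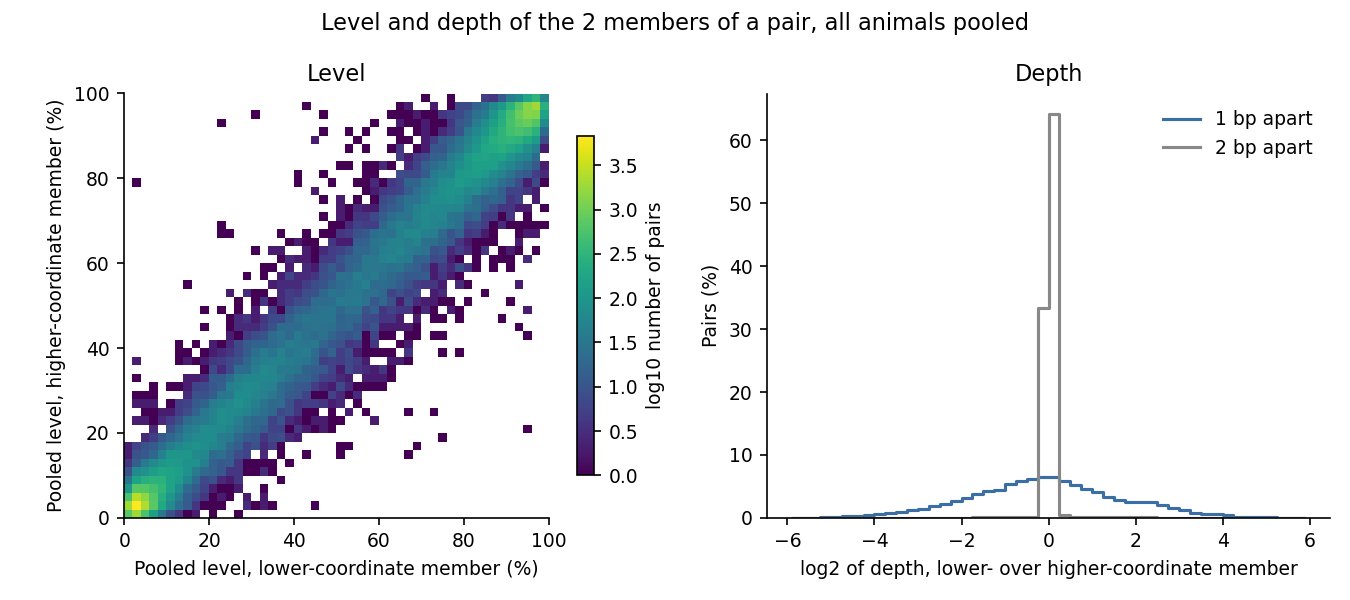
Left, pooled methylation level of the lower-coordinate member (x axis, %) against the higher-coordinate member (y axis, %), with colour for the log10 number of pairs. Right, share of pairs (y axis, %) by log2 ratio of the depths of the 2 members, for positions 1 bp and 2 bp apart. Levels lie along the diagonal from 0 to 100%, while depths spread widely at 1 bp and hardly at all at 2 bp.

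Levels on the 2 members were close. With the reads of all animals pooled, the median absolute difference was 1.97 percentage points, 81.8% of pairs lay within 5 points and 95.7% within 10, and the pooled levels correlated across pairs with r = 0.993. Only 67 pairs differed by more than 30 points when pooled. No pair had a pooled level under 20% on one member and over 80% on the other. Members covered the whole range of methylation: 19452 pairs had a pooled mean level under 5%, 37066 lay from 5% to 95%, and 7112 were over 95%.

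Within single animals the members scattered more. The mean absolute difference per animal was 6.69 ± 0.778 points (SD, n = 11), with the lowest, 5.53, in animal 1 of cohort 10 and the highest, 7.84, in animal 8 of cohort 14. Animals 3, 6, 7 and 8 of cohort 14 had the 4 highest values, from 7.31 to 7.84, and the other 7 animals lay from 5.53 to 6.55. Without those 4 libraries the mean was 6.18. In a single animal 73.8% to 83.1% of pairs lay within 10 points, and 17175 pairs (27.0%) did so in every animal. Both values depend on depth, since a level from 64 reads carries a sizeable counting error, and counting intervals here take no account of PCR copies, which are not independent molecules.

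To set counting error aside, the squared difference of the members, summed over pairs at 5% to 95%, was divided by the binomial variance expected from their depths. The variance was taken at the mean of the pooled levels of the members, not at the level of each animal. This scatter ratio is 1 when reads are independent and both strands have a single true level equal to the pooled one. It was 5.16 ± 1.54 (SD, n = 11), from 2.91 to 7.44, so members differed by more than their read numbers alone allow in every animal. Cohort 10 had 2.91 and 3.06, and cohort 14 had 3.60 to 7.44. The libraries of cohort 10 also had the lowest total counts, 496737892 and 479979855, and the ratio was higher in deeper pairs, as given below. Cohort and depth cannot be told apart here.

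Positions 2 to 10 bp apart (1584433 pairs), which belong to different CpGs, scattered more for their depth. Their scatter ratio was 9.0 ± 1.97 (SD, n = 11). The ratio of 1-bp pairs was lower by -0.84 ± 0.22 on the log2 scale, in 11 of 11 animals (exact sign-flip test, p = 0.000977), and by -0.99 without the 4 libraries (exact p = 0.0156). At 2 bp it was 7.68 ± 1.76, at 3 bp 8.68 ± 1.89 and at 10 bp 9.63 ± 2.08. The largest step on this scale was that from 1 to 2 bp. In pooled levels the 95th percentile of the absolute difference was 9.47 points at 1 bp, 13.8 at 2 bp and 17.5 at 10 bp.

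The plain absolute difference within animals gave the opposite order. It was 6.04 ± 0.544 points (SD, n = 11) at 2 to 10 bp, and 1-bp pairs were higher by 0.657 ± 0.282 in 11 of 11 animals (exact sign-flip test, p = 0.000977). The classes differ in depth and level: the shallower member of a 1-bp pair had a median of 64 reads against 124 at 2 bp, and the median pooled level was 33.3% against 4.73%. With at least 100 reads on both members the difference was -0.717 points, and with the 2 to 10 bp pairs weighted to the level and density classes of the 1-bp pairs it was -0.332 (exact sign-flip tests, p = 0.000977 and 0.00879). The scatter ratio kept its direction under both settings.

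**Figure D2:**
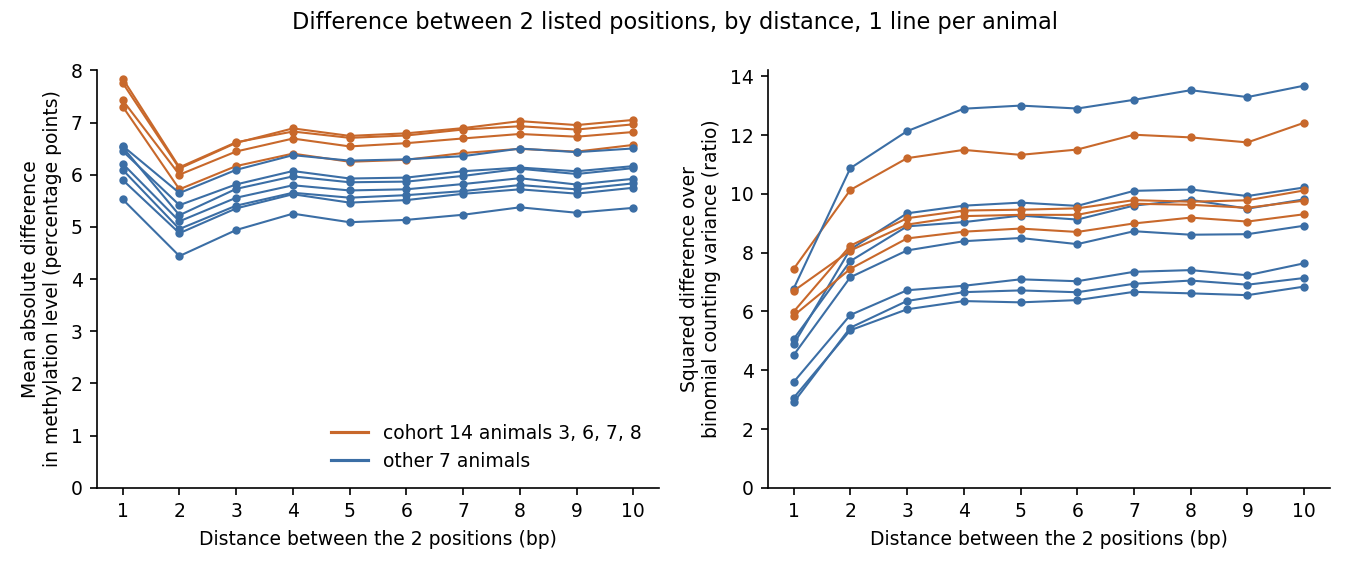
Mean absolute level difference in percentage points (left) and squared difference over binomial counting variance (right) against the distance between the 2 positions in bp, 1 line per animal. In the right panel every animal has its lowest value at 1 bp, and in the left panel every animal falls from 1 to 2 bp; the 4 named libraries have the 4 highest absolute differences at 1 bp.

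By the count of steps above, runs of 4 hold 2 adjacent CpGs with both strands read, which could not be checked without sequence. On this reading the strand and the CpG can be changed separately in the same 3028 places. The choice of this comparison was made after the data were seen. The scatter ratio was 5.04 ± 1.67 (SD, n = 11) between the strands of a single CpG. It was 8.06 ± 2.18 between the strands facing each other across the 2 CpGs, which are also 1 bp apart and have the same depth imbalance (median absolute log2 ratio 1.08 in both). The second was higher by 0.71 ± 0.20 on the log2 scale, or 1.63-fold, in 11 of 11 animals (exact sign-flip test, p = 0.000977). The opposite strand 3 bp away gave 8.09 ± 2.20, and the same strand of the neighbouring CpG, 2 bp away, gave 6.08 ± 1.64. Those same-strand positions had nearly equal depths (median absolute log2 ratio 0.0231), so depth balance changed along with the strand. By other measures they were the closest. Their mean absolute difference was 5.81 ± 0.567 points, against 5.92 ± 0.804 between the strands of a single CpG. Deviations of an animal from the mean of all animals correlated with a mean r of 0.434, against 0.342. So at an equal distance of 1 bp, members of the same CpG scattered less than members of neighbouring CpGs.

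**Figure D3:**
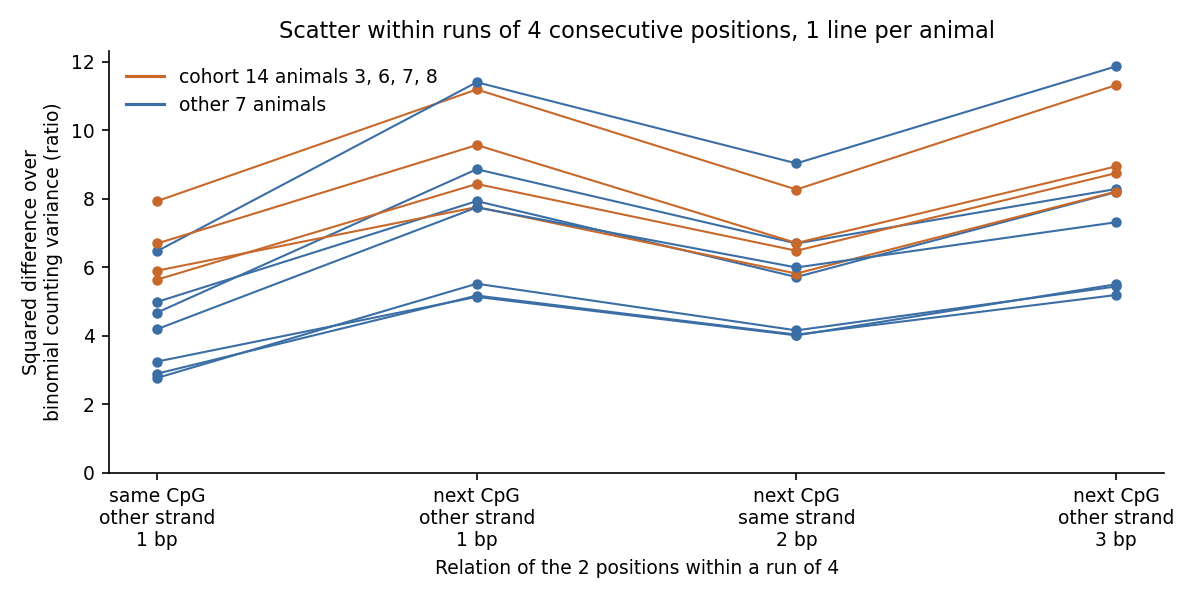
Squared difference over binomial counting variance (y axis) for the 4 relations of 2 positions within runs of 4 consecutive positions (x axis), 1 line per animal. In every animal the ratio is lower between the strands of a single CpG than between facing strands of neighbouring CpGs at the same distance of 1 bp.

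A difference between the members was tested at the 37066 pairs with a pooled mean level of 5% to 95%. At an adjusted p under 0.05, 2509 pairs (6.77%) were called (quasi-binomial logistic regression with animal as a block, limma shrinkage and Benjamini-Hochberg adjustment). At 1361 (3.67%) the lower coordinate was the more methylated and at 1148 (3.1%) the higher. At an unadjusted p under 0.05 there were 7971. The called differences were modest: their median pooled difference was 10.2 points, against 2.91 in the other pairs, and 48.8% of them were at most 10 points. In 599 of the called pairs the difference had the same sign in all 11 animals. The same test called 41.2% of 727149 pairs 2 to 10 bp apart, whose shallower members had medians of 121 to 125 reads at the single distances, so the shares are not matched for depth. Without the 4 libraries named above, 1313 of 36634 pairs were called.

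The calls were unevenly spread over the kinds of pair. Of pairs of the same CpG, 2030 of 34909 (5.82%) were called, against 419 of 1853 (22.6%) that joined neighbouring CpGs and 60 of 304 (19.7%) in odd runs. The scatter ratio followed the same order, at 5.01 ± 1.51, 8.06 ± 2.31 and 7.0 ± 2.02 (SD, n = 11).

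Only 2 pairs differed by more than 30 points in all 11 animals, and neither was a pair of the same CpG by its run. By comparison 2604 pairs 2 to 10 bp apart did so (0.164% of them). The first was on chromosome 7 at 132473512 and 132473513, the first 2 positions of a run of 3. Its lower member was nearly unmethylated, at 2.93% ± 1.44 (SD, n = 11) and from 1.06% to 5.26%. In most animals that level was the lowest methylated count of 1 over the depth. Examples are 1.06% from 94 reads in animal 5 of cohort 14 and 5.26% from 19 in animal 8. The spread of this member therefore follows depth in large part. Its higher member was at 79.7% ± 10.3, from 63.0% to 92.6%. The last position of the run, 132473514, stood at 84.8% ± 14.0 and differed from the middle position by 3.52 to 34.3 points in single animals, with a median of 17.0. The median depths of the 3 positions were 41, 81 and 40 reads, so the outer positions were alike in depth and the middle one apart.

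The other pair lay on chromosome 7 at 154950249 and 154950250, the middle of a run of 4, where it joined neighbouring CpGs. All 4 positions can be read in every animal. The first CpG had pooled levels of 23.9% and 23.7% on its 2 positions and the second 93.1% and 89.5%. The first CpG also varied between animals, in the same way on both strands. Its second position was at 1.04% and 1.89% in cohort 10, and at 42.1%, 29.1%, 2.51%, 50%, 44.9%, 0.862%, 34.0%, 2.14% and 35.8% in animals 1 to 9 of cohort 14. Its first position was at 3.12% and 5.94% in cohort 10, and at 49.7%, 40.3%, 0.562%, 52.0%, 21.9%, 2.99%, 42.9%, 2.38% and 55.2% in cohort 14. The 5 animals under 3% on the second position were all at or under 5.94% on the first, and the other 6 were at or above 21.9% on both. The second CpG stayed between 79.2% and 99.4% on both of its positions in all animals.

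The pairs just outside the threshold were over 30 points in 9, 10 and 5 of the 11 animals. The pair at 814395 on chromosome 8, which joins neighbouring CpGs, had 25.6% ± 9.55 and 65.5% ± 10.2 (SD, n = 11), with a smallest difference of 22.4 points. At 58221989 on chromosome 9, again between neighbouring CpGs, the levels were 95.3% ± 5.46 and 49.95% ± 17.1, with a smallest difference of 21.3.

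The one of these standing alone, over 30 points in 5 animals, was on chromosome 10 at 36015779, in a place with only 2 CpGs listed within 250 bp. Its lower member was at 78.7% ± 17.1 and its higher member at 41.3% ± 22.8 (SD, n = 11). The lower member was the more methylated in every animal, by 18.9 to 83.5 points. The widest gap was 88.3% against 4.81% in animal 3 of cohort 14, from 94 and 104 reads. The difference was called (adjusted p = 0.000117, the same quasi-binomial test).

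Differences of more than 30 points in a single animal were common. They occurred in 7543 pairs (11.9%), while 52188 pairs (82.0%) had none, and pairs 2 to 10 bp apart had 6.34%. These shares are not matched for depth or level. The shallower member had a median of 64 reads at 1 bp and of 121 to 125 at the other single distances. Among 1-bp pairs the share fell from 21.8% under 30 reads to 0.390% at 240 or more. Such differences occurred in 6 or more animals at 93 pairs, 60 of them of the same CpG out of 59115 and 33 of the other kinds out of 4515. Of 3899 pairs over 30 points in 2 or more animals, 1614 (41.4%) went in both directions. Pairs over 30 points in a single animal were shallower, with a median of 46 reads on the shallower member against 72 in pairs with none, and 39.3% of them against 12.8% lay at 20% to 80%. The count attributable to a single animal was 1064 to 1245 in animals 3, 6, 7 and 8 of cohort 14 and 237 to 562 in the other 7. Without those 4 libraries 4657 pairs were over 30 points in a single animal, and with at least 100 reads on both members in every animal there were 116 of 7693.

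The clearest cases rested on few reads of a single strand. At 86029594 on chromosome 1 the lower member was at 92.9% in animal 7 of cohort 14, from 14 reads (95% Wilson interval 68.5% to 98.7%), and from 2.44% to 14.3% in the other 10. The higher member was at 0.459% in that animal, from 218 reads. At 132590019 on chromosome 9 the same animal stood at 15% on the lower member, from 20 reads (5.24% to 36.0%), and at 98.0% on the higher, from 51. At 61339919 on chromosome 12 animal 8 of cohort 14 had 83.3% on the lower member, from 12 reads (55.2% to 95.3%), and 0.735% on the higher, from 136. In the remaining 10 animals the higher members of these pairs ranged from 0.556% to 9.26%, from 93.8% to 98.9% and from 1.03% to 6.94%. None of the 3 shifts appeared on the other strand, but this follows from the choice of the pairs. They were taken because their members lay far apart in a single animal and close together in the others. A shift shared equally by both strands would have kept a pair out.

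How often a change in a single animal was seen on both members was counted next, by a rule set after the data were seen. An animal was selected at a member when it lay over 30 points from the median of the others there and all others lay within 15 points of it. The opposite member was then read for a shift of over 15 points in the same direction. Of 1839 cases in which the animal was lower, 613 (33.3%) were followed by the other member. Of 1356 in which it was higher, 295 (21.8%) were followed. The percentage was greater for downward shifts in 9 of 11 animals, by 16.5 ± 21.4 points (SD, exact sign-flip test, p = 0.0322). Without the stretch on chromosome 20 described below, 196 of 1255 upward shifts (15.6%) were followed, and the difference was 21 ± 17.1 points in 10 of 11 animals (exact sign-flip test, p = 0.00391). Between positions 2 bp apart, whose depths are nearly equal, the difference was 2.59 ± 17.4 points and 7 of 11 animals went that way (exact sign-flip test, p = 0.628), and without the stretch it was 4.38 ± 16.2 points in 8 of 11 (exact p = 0.389).

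The 4 libraries and the other 7 took no single order in these counts, here without the stretch. At 1 bp, downward shifts were followed in 26.4% of 1026 cases in the 4 and in 42.1% of 813 in the other 7, and upward shifts in 16.9% of 875 and 12.6% of 380. At 2 bp, downward shifts were followed in 40.04% of 1401 cases in the 4 and 28.2% of 1036 in the other 7, and upward shifts in 25.5% of 2596 and 25.8% of 1003. Deviations of an animal from the mean of all animals correlated between the 2 members, across pairs, with r of 0.297 to 0.362 in those 7 animals and 0.220 to 0.273 in the 4, without the stretch on chromosome 20. These r values share library and depth and are descriptions. The part of the lowest unmethylated counts in these values was not tested.

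Signed differences were close to 0. The lower-coordinate member was higher by 0.109 ± 0.0577 points (SD, n = 11), in 10 of 11 animals (exact sign-flip test, p = 0.00195). With at least 100 reads on both members the value was 0.0543 (exact sign-flip test, p = 0.0654). The mean level was 44.7% on the lower-coordinate members and 44.6% on the higher-coordinate members.

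Compared by depth instead of coordinate, the sign of the difference turned on the lowest counts. No methylated or unmethylated count in the tables is below 1, so shallow positions cannot reach 0% or 100%. In pairs under 5% the deeper member was -0.881 ± 0.184 points from the shallower as deposited, and 0.160 ± 0.0904 after methylated counts were lowered by 1 and totals by 2. In pairs over 95% it was 0.508 ± 0.207 as deposited and -0.367 ± 0.107 after it (SD, n = 11 in all; exact sign-flip tests, p = 0.000977 in all 4). Over all pairs the difference was -0.0932 as deposited and 0.0544 after it.

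The absolute difference followed the level. It was 3.07 ± 0.424 points under 5%, 14.3 ± 1.75 at 40% to 60% and 3.58 ± 0.210 over 95%. The scatter ratio, which takes out the binomial variance, was 4.74 ± 1.71 at 5% to 20% and 5.45 ± 1.58 at 40% to 60%, higher by 0.712 ± 0.469 in the second class, in 10 of 11 animals (exact sign-flip test within animals, p = 0.00195). The tests between classes in this paragraph were added after the data were seen. Local density was taken as the number of CpGs listed within 250 bp. The absolute difference was 9.67 ± 0.918 points at 1 to 4 CpGs and 5.37 ± 0.774 at 40 or more, but dense places were also less methylated, with a median pooled level of 5.07% against 87.2%. The scatter ratio was 5.14 ± 1.62 and 5.29 ± 1.80 in the same classes, higher in the dense class in 6 of 11 animals (exact sign-flip test, p = 0.316). At 80% to 95% the absolute difference was 8.51 ± 0.725 in the sparsest class and 7.49 ± 0.714 in the densest, lower in 11 of 11 animals, while the scatter ratio was 4.77 and 5.64, higher in 11 of 11 (exact sign-flip tests, p = 0.000977 for both). With depth the absolute difference went from 9.23 ± 0.938 under 30 reads on the shallower member to 3.72 ± 0.498 at 240 or more, and the scatter ratio from 4.31 ± 1.29 to 6.82 ± 2.67 (SD, n = 11 throughout), higher at depth in 11 of 11 animals (exact sign-flip test, p = 0.000977).

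**Figure D4:**
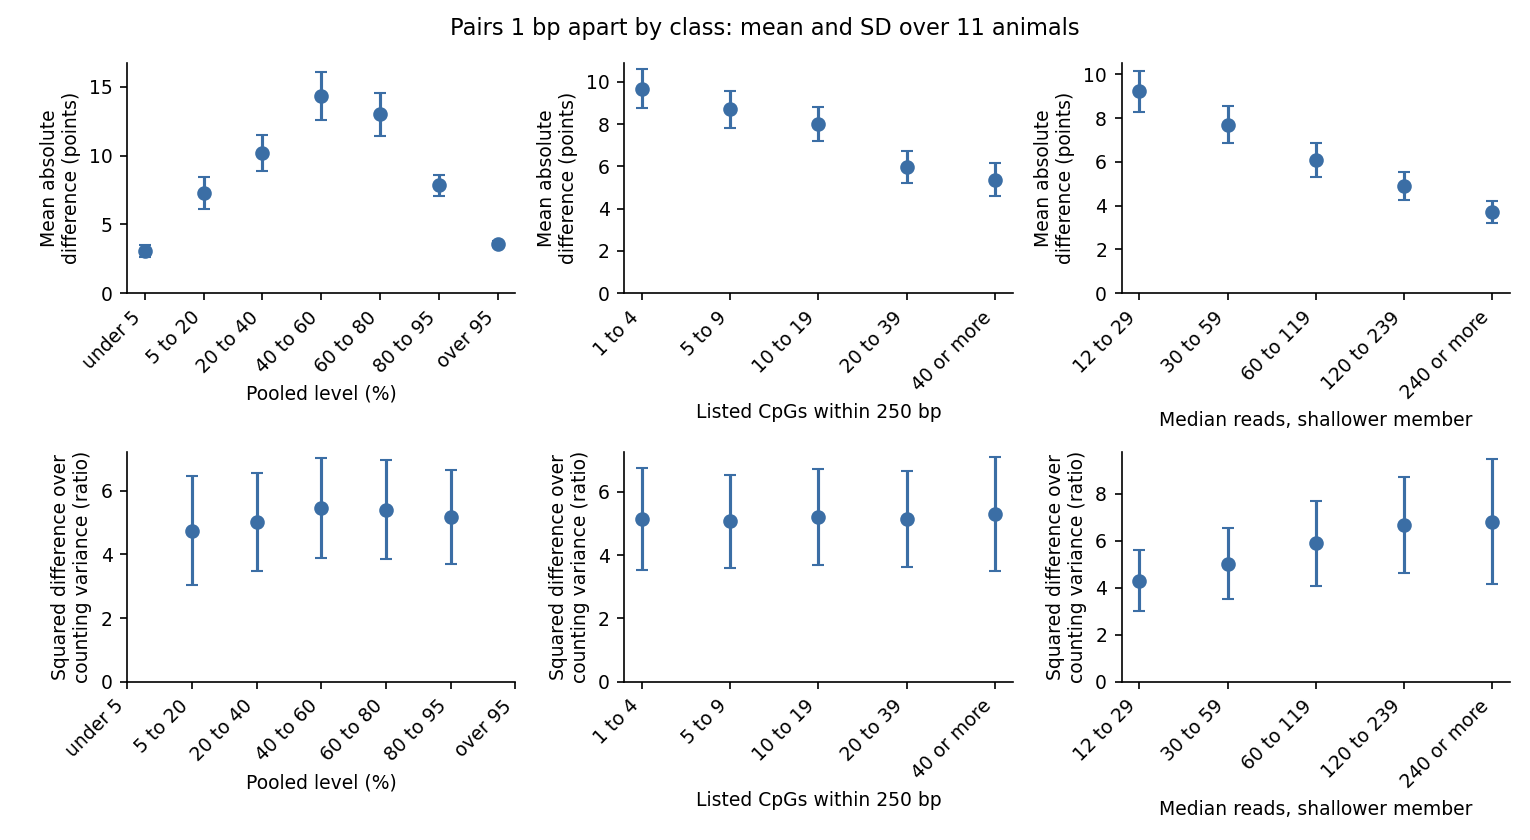
Mean absolute difference in percentage points (top) and squared difference over binomial counting variance (bottom) of pairs 1 bp apart, by pooled level (%), by CpGs listed within 250 bp and by median reads on the shallower member; points are means and bars SD over 11 animals. The absolute difference peaks at 14.3 points at 40% to 60%, while the class means of the ratio lie between 4.74 and 5.45 across level and density; the classes under 5% and over 95% were left out of the ratio.

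Agreement was closest in absolute terms where depth was greatest. The deepest pair at 45% to 55% was on chromosome 8 at 814603, with 4188 to 10684 reads per member and animal. Its levels were 50.2% ± 4.81 and 48.7% ± 4.80 (SD, n = 11), and the 2 members differed by 0.0777 to 2.94 points in single animals. Animal 4 of cohort 14 was lowest on both, at 41.5% and 39.7%, and animal 8 highest on both, at 55.8% and 54.3%. The small difference was called (adjusted p = 0.0461, quasi-binomial test). A second deep pair 51 bp away, at 814552, had 45.6% ± 6.34 and 46.7% ± 6.36 and was not called (adjusted p = 0.462).

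Pairs were not spread evenly. The share of listed positions that were paired was 1.51% at 1 to 4 CpGs within 250 bp and 6.43% at 40 or more, and it ran from 2.11% on chromosome 14 to 6.79% on chromosome 19. Joined at gaps of up to 200 bp, the pairs formed 8905 stretches. The 1825 stretches of 10 or more pairs held 69.8% of all pairs, and 93.2% of the positions listed inside them were paired. A further 3621 stretches were a single pair.

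The largest concentration was on chromosome 20 from 29807773 to 29821918, found after the data were seen. It held 1799 pairs in 14146 bp, 2.83% of all pairs, and 94.4% of its 3377 listed positions were paired. The median depth there was 901 reads, against 100 at listed positions within 5000 bp on either side. The mean level over its pairs differed widely between animals and was nearly the same on lower and higher members. Positions inside longer runs are the higher member of a pair and the lower member of the next, so the 2 means share some positions. The lower and higher members stood at 60.1% and 59.7% in animal 2 of cohort 14, at 39.96% and 39.3% in animal 5, at 27.3% and 26.5% in animal 9 and at 21.4% and 21.8% in animal 8. The other 7 animals lay between 6.74% and 13.9% on the lower members and between 6.00% and 13.9% on the higher. The largest gap between the members' means was 1.56 points, in animal 3 of cohort 14.

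Animal 2 was the highest of all animals on both members at 1755 of these pairs (97.6%). Depth moved with the level in part: the median depth was 18.5 times the library's median in animal 2 and 10.3 times in animal 5, and 2.61 to 7.88 times in the others. Its part in the level was not tested. Listed positions within 5000 bp outside the stretch had mean levels of 41.1% to 67.2%. In this stretch 290 of 1797 tested pairs (16.1%) were called, 2.38 times the share over all pairs, at a far greater depth. The mean absolute difference over all pairs was 6.73 points without it.

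**Figure D5:**
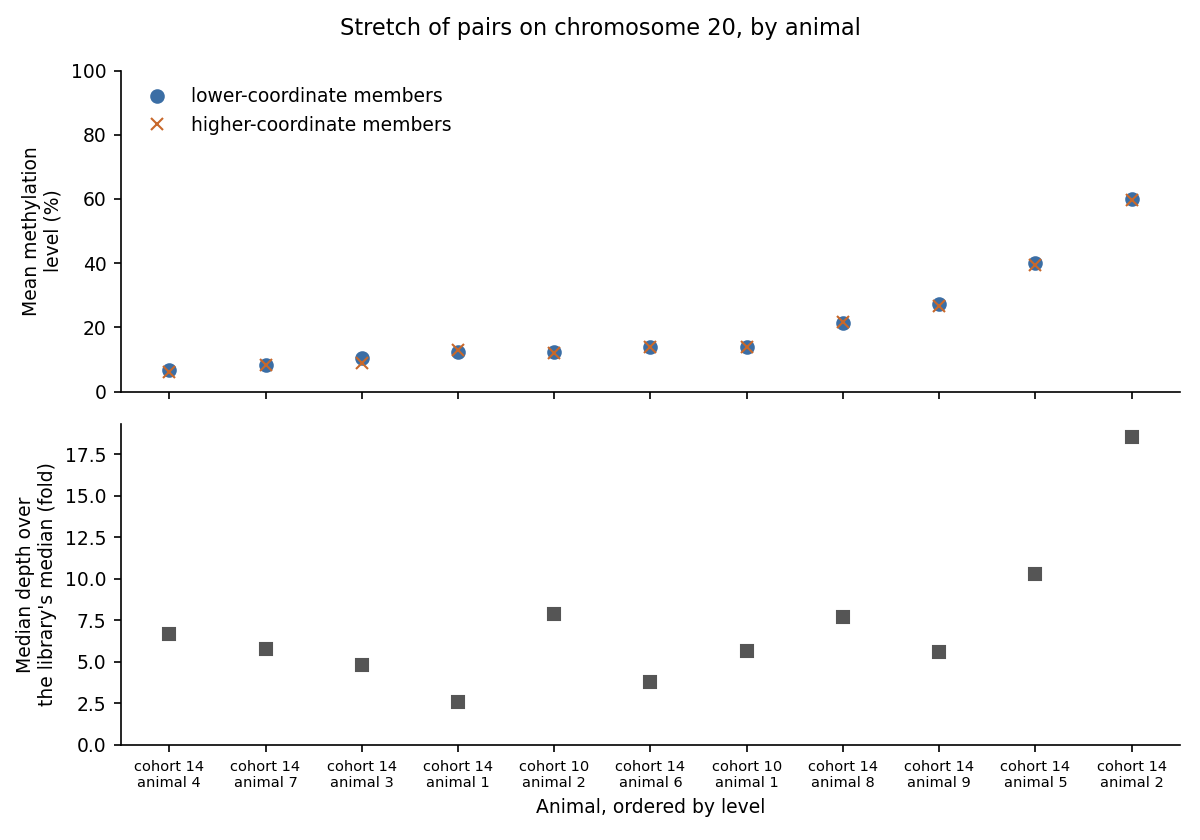
Top, mean methylation level (%) over the 1799 pairs of the stretch on chromosome 20, for lower- and higher-coordinate members, by animal in order of level. Bottom, median depth in the stretch as a multiple of the library's median. The symbols of the 2 members nearly coincide from 6.74% to 60.1%, and animal 2 of cohort 14 is highest in both panels.

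Intake was examined because the animals differ in it, with cohort in the model. Of 1874277 positions tested, 0 (0%) were called at an adjusted p under 0.05, and 55406 (2.96%) had an unadjusted p under 0.05. Of 69712 pair members 0 were called, and at an unadjusted p under 0.05 there were 1891 (2.71%; quasi-binomial regression, limma shrinkage). With limma on log2 ratios the numbers were 0 and 2831. Of 30539 pairs with both members tested, 122 had both at an unadjusted p under 0.05, and 117 of these had slopes of the same sign. The difference between the members was related to intake at 0 of 37066 pairs (0%), with 1323 (3.57%) at an unadjusted p under 0.05 (limma).

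The smallest p among pair members shows how the strands bear on a single position. At 177561036 and 177561037 on chromosome 1 the slopes were -1.80 ± 0.440 and -1.80 ± 0.347 (SE, logit per unit of intake), with an adjusted p of 1.0 on each (quasi-binomial test). The levels of the 2 members were 87.8% and 84.3% in animal 4 of cohort 14, which had the lowest intake, and 1.44% and 6.90% in animal 9, which had the highest. Over all animals the lower member ran from 0.797% to 87.8% and the higher from 1.41% to 84.3%. Animal 9 was therefore not the lowest on either member. Members of an animal differed by 1.72 to 25.3 points. At 144856403 and 144856404 on chromosome 2 the slopes were -2.09 ± 0.727 and -2.02 ± 0.391. Here a single library stood apart: animal 9 was at 39.3% and 53.6%, and the other 10 were at or above 92.2% on both.

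The difference with the smallest p was at 34151981 on chromosome 11. The lower member was at 66.0% to 98.7% and the higher at 84.7% to 99.2%, and the log2 ratio of their odds rose by 2.79 ± 0.467 (SE) per unit of intake, with an adjusted p of 1.0 (limma). At 31273509 on chromosome 13 the slope was -2.37 ± 0.401. Neither passed the threshold.

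Over animals, the mean absolute difference and intake had r = 0.191 (permutation p = 0.574, adjusted over 2 relations 0.574) and rho = 0.264 (permutation p = 0.437). When the 2 animals with the most extreme intake were left out, r was 0.217. The mean level of pair members and intake had r = 0.336 (permutation p = 0.314, adjusted 0.574) and rho = 0.445 (permutation p = 0.174). Without the 2 farthest animals r was -0.0923, and within cohort 14 it was 0.286. Cohort 10 had too few animals for a value. Leaving out each animal in turn gave r from 0.0811 to 0.763. The lowest was without animal 4 of cohort 14 (permutation p = 0.827). The highest was without animal 2 of cohort 14 (permutation p = 0.00987, unadjusted, the extreme of the 11 values). Leaving out the chromosome 20 stretch, with all animals, gave r = 0.589 (permutation p = 0.0572).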

How the data were processed

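The authors deposited whole-number counts of methylated and of total reads per position and library, not normalized. Bismark and FastQC are named in the submitters' processing notes; the sources used here give no version, build or filter. Of the columns, 5 matched no labelled sample and were not used. The lowest methylated and unmethylated counts were 1 and the lowest total 12, so 1 may have been added to each; no label says so. Levels are methylated over total counts. The replicate is the animal; p-values measure the spread between these animals. Calls used quasi-binomial logistic regression with dispersions shrunk by limma 3.58.1 (R 4.3.3) and Benjamini-Hochberg adjustment at 0.05. Other values used exact sign-flip tests over animals, and correlations 100000 permutations (Python 3.11.15, NumPy 2.4.6, SciPy 1.17.1). The tests were tried on simulated data: of 37066 simulated pairs, 80.0% of 50 with a logit difference of 2 were called, 28.0% of 50 at 1 and 13 of 36866 unchanged ones. For intake, 72.0% of 50 among 20000 simulated positions were called at a logit slope of 2 per unit and 26.0% at 1, and for pair differences 40.0% and 0%. At the simulated positions all animals shared the pooled level apart from the slope, with a fixed spread between them. Adjustment there was over 20000 positions, against 1874277 in the data. The shares called at real positions can therefore be lower. Pairs and comparisons were chosen with earlier results of these data known. Named pairs were the extremes of rules on size, depth, run length and p: up to 5 in each direction over 30 points in all animals, 3 with over 30 in 1 animal and at most 10 in the others, 3 deepest at 45% to 55%, the 2 longest runs, 3 just outside the threshold, and 2 positions and 2 differences with the smallest p for intake.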

Additional observations from a re-analysis of the deposited data

Results flagged for a closer look

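In cohort 14, with 9 animals, 28 sets of values were checked for an animal far from the other 8, and 4 were found where chance gives about 1 in 20. The depth of the chromosome 20 stretch was 18.5 times the library's median in animal 2 and 2.61 to 10.3 times in the others. The other 3 are the pairs that were named because 1 animal differed, so their standing apart follows from the choice. At 86029594 on chromosome 1 the difference between the members was 92.4 points in animal 7 and -6.82 to 6.34 in the others. At 132590019 on chromosome 9 it was -83.0 in animal 7 and -4.80 to 1.62 in the others. At 61339919 on chromosome 12 it was 82.6 in animal 8 and -1.91 to 1.72 in the others.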

How the results depend on the processing

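The scatter ratio and the depth ratio kept their direction and call under every alternative run. Requiring 100 reads on both members put the mean absolute difference at 4.85 points. Its difference from the 2 to 10 bp pairs was -0.717, and the signed difference was 0.0543 (exact sign-flip p = 0.0654). With that minimum, 454 of 4371 tested pairs were called, 0 pairs were over 30 points in all animals and 116 in 1 animal only. Weighting to level and density classes gave -0.332 for the difference from the 2 to 10 bp pairs. Called pairs numbered 2509 of 37066 tested in the main run and 1641 of 31655 after 1 and 2 were taken from the counts. They numbered 1380 of 19159 with 30 reads on both members and 1621 of 31358 among pairs standing alone. Without the 4 libraries they numbered 1313 of 36634, in cohort 14 only 1552 of 37106 and with limma 1532 of 37066. Read minimums, standing alone and left-out animals put fewer pairs or animals into the test; after 1 and 2 were taken from the counts 31655 pairs were tested, and there and with limma the cause was not tested. Pairs over 30 points in all animals numbered 1 with 30 reads, 3 without the 4 libraries and 5 in cohort 14 only. They numbered 0 among pairs standing alone or of the same CpG by the run, 6 at a threshold of 20 and 1 at 40. In 1 animal only they numbered 2398 with 30 reads, 4657 without the 4 libraries, 11890 at 20 and 3873 at 40. Leaving out each animal in turn gave 6.58 to 6.81 points for the mean absolute difference, 0.612 to 0.695 and -0.88 to -0.79 for the 2 comparisons with 2 to 10 bp, 0.101 to 0.123 for the signed difference, 1958 to 2233 called pairs, 2 to 3 and 6946 to 7510 pairs over 30 points, and 0 for intake throughout. The correlations with intake ran from 0.0261 to 0.368 for the absolute difference and from 0.0811 to 0.763 for the level. Omitting the chromosome 20 stretch and keeping only same-CpG pairs were chosen after seeing the data. No paired analysis was possible because the numbers of the animals come from the order of accessions and pair no animal with another; the members of a pair were compared within animals throughout. Depth limits single pairs: the median shallower member has 64 reads.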
